A study of Rattus norvegicus with 3 samples.

Results

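The translation initiation and elongation factors described here are all genes whose platform symbol starts with Eif or Eef followed by a digit, taken from probe sets annotated with exactly 1 symbol. The rule found 57 probe sets of 55 genes among 14506 named genes, and a gene with 2 probe sets was represented by the one with the higher mean over the arrays. All 55 were bright enough to be compared, with means from 6.34 to 13.31 against a lower limit of 5.72 (log2 RMA values, the scale of every level below).

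RNA came from the soleus, a slow postural muscle of the hind limb, of 7-week-old rats whose strain is labelled Brown. All 3 groups were irradiated for 2 weeks, to 50 mSv in all. Group Ct had irradiation alone, group DN also had the muscle's nerve supply removed, and group TS was also hung by the tail, which takes the load off the hind limbs. RNA of 6 rats was pooled per group and put on 1 array, so no spread between rats was measured, no p-value can be given, and each difference describes 3 pools. How denervation was done is not given in the sources used here, and an unirradiated group was not analysed here. In whole muscle, fewer cells of a type and less RNA per cell cannot be told apart.

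Protein synthesis starts when eIF2, carrying the initiator tRNA and GTP, joins the small ribosomal subunit together with eIF1, eIF1A, eIF3 and eIF5. The eIF4F complex (the cap-binding eIF4E, the helicase eIF4A and the scaffold eIF4G) brings in the mRNA, and the 4E-binding proteins hold eIF4E back until mTORC1 phosphorylates them. eEF1A then delivers each aminoacyl-tRNA, the eEF1B subunits recharge eEF1A with GTP, and eEF2 moves the ribosome along until eEF2 kinase inhibits it by phosphorylation. In muscle these steps are controlled by nerve activity, load and nutrients, mostly through phosphorylation, which an mRNA array does not see. Many mRNAs of this machinery begin with a run of pyrimidines, the terminal oligopyrimidine (TOP) tract, through which mTORC1 controls their own translation.

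The start regions of 7 genes are shown because their differences stand at the ends of the TS comparison: the 5 members past 1.5-fold above Ct (Eef1b2, Eif3b, Eef2k, Eif5 and Eef1e1) and the 2 with the lowest differences from Ct (Eif4e and Eef1a1). Each is RefSeq sequence of build GRCr8, from 100 bases before the annotated start to 20 after it, on the strand of the gene. Capitals mark CACGTG, the E-box bound by the Myc family and related factors, and any run of at least 8 C or T letters that overlaps the 20 bases on either side of the start.
Eef1b2: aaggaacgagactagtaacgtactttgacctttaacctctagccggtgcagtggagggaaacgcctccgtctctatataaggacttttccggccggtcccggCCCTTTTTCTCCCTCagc
Eif3b: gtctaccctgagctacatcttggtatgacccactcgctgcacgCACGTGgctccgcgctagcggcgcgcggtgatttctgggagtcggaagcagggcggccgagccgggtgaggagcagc
Eef2k: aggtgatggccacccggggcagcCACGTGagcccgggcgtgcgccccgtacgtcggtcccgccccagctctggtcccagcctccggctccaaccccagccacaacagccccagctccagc
Eif5: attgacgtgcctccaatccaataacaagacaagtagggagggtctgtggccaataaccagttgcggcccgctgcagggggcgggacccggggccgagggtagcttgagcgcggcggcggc
Eef1e1: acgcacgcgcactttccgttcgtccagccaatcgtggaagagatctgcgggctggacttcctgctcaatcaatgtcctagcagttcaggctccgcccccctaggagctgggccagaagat
Eif4e: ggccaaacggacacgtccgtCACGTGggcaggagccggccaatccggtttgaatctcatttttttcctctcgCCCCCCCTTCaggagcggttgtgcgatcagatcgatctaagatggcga
Eef1a1: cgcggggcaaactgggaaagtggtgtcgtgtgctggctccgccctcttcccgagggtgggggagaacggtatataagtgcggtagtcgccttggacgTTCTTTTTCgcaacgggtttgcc

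These windows lie at chr9:72073991-72074110 on the plus strand (Eef1b2), chr12:19334749-19334868 on the minus strand (Eif3b), chr1:184824320-184824439 on the plus strand (Eef2k) and chr6:136410233-136410352 on the plus strand (Eif5). The others are at chr17:26354147-26354266 on the plus strand (Eef1e1), chr2:229740653-229740772 on the plus strand (Eif4e) and chr8:88225050-88225169 on the minus strand (Eef1a1). Eef1b2 and Eef1a1, 2 parts of the same elongation factor, both carry a pyrimidine run at the start, and they lay on opposite sides of Ct in TS. The only other run marked among the 7 genes is in Eif4e, with its first base at -28. Eif4e, the lowest in TS, and Eif3b and Eef2k, among the highest, each hold CACGTG. The 300 bases given for each start were searched on both strands for CACGTG, which reads the same on each. Of 49 matched members, 8 held it (16.3%), against 7.08% of the 27457 genes with a RefSeq start region. A pyrimidine run at the start, searched on the sense strand alone, was found in 16 of 49 members (32.7%) and in 22.8% of those genes. That larger set was not limited to genes measured and bright enough here, as the members were, so the shares are of unlike sets. Annotated starts can be some bases away from those used in soleus, so these matches describe letters in a window and not sites.

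Translation factor mRNAs differed little between the pools, with many small positive differences in TS. No member was 2-fold different in any of the 3 comparisons. Of the 10154 genes compared, 2.24% stood 2-fold or more above Ct in DN and 2.24% as far below it, and in TS 1.37% stood that far above and 0.689% below. For DN against TS these shares were 1.2% and 1.74%. In TS, 5 of 55 members were at least 1.5-fold higher than in Ct and none was lower by as much, where 5.89% of all genes were higher and 2.68% lower. In DN, 1 of 55 was at least 1.5-fold higher, Eef2k, and none was lower, where 4.93% of all genes were higher and 5.53% lower. Between DN and TS directly no member reached 1.5-fold either way, against 3.2% of genes higher and 5.93% lower in DN. The members' 5 of 55 in TS make up 9.09%, and every other count past 1.5-fold is below the share of all genes. At a smaller limit of 0.32 (log2), 14 members were above Ct in TS and 1 below, where 17.4% and 6.62% of genes were. In DN, 5 were above Ct and 1 below (9.71% and 9.57% of genes), and between DN and TS 1 was higher in DN and 10 were lower (7.1% and 16.8% of genes).

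**Figure D1:**
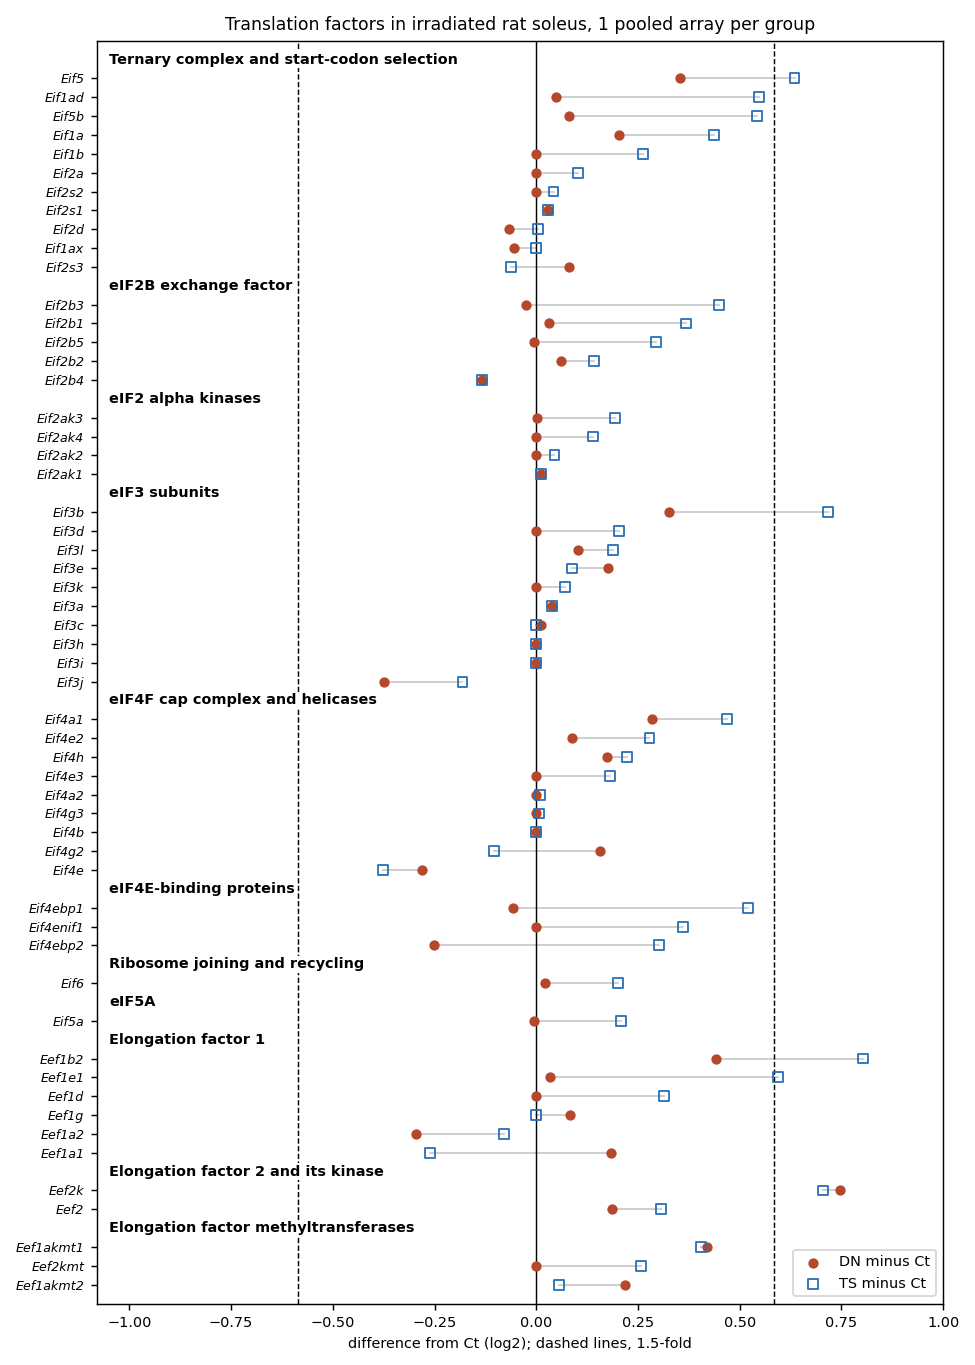
Difference from Ct (log2, horizontal axis) of each of the 55 genes, in rows by factor group, with filled circles for DN, open squares for TS and dashed lines at 1.5-fold. Eef2k is the only circle beyond a dashed line, and Eef1b2, Eif3b, Eef2k, Eif5 and Eef1e1 are the squares beyond it.

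Most members were slightly higher in TS. Of 55, 42 had a higher value in TS than in Ct, 7 a lower one and 6 the same value, whereas 52.6% of all genes were higher, 22.7% lower and 24.7% equal. Their median difference was 0.18, against 0.02 over all genes compared. In DN, 28 members were higher than Ct, 11 lower and 16 equal, against 32.8% of genes higher, 24.3% lower and 42.9% equal, and the median was 0.00 for members and for all genes. Between DN and TS, 10 were higher in DN, 38 lower and 7 equal, against 23.3%, 50.3% and 26.3% of genes. The summary step of RMA can return equal values for arrays that differ, so a difference of 0 is not evidence of an equal amount of mRNA.

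The size of the TS shift depends on how the arrays are scaled. The median of the genes compared was 8.12 on the Ct array, 8.13 on DN and 8.25 on TS. Subtracting these medians left 30 of 55 members above Ct in TS and 25 below, with a median of 0.05, while the share of all genes above Ct went to 34.9% and their median to -0.12. It also left Eef1b2 as the only member past 1.5-fold. With quantile normalization 39 members were above Ct (43.8% of genes) and with a trend on expression removed 37 were (43.2% of genes), so the share was larger among members than among all genes in each of these settings. Among brighter genes alone, those from the 50th percentile up, it was 38 of 50 members (76%) against 57.6% of genes.

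**Figure D2:**
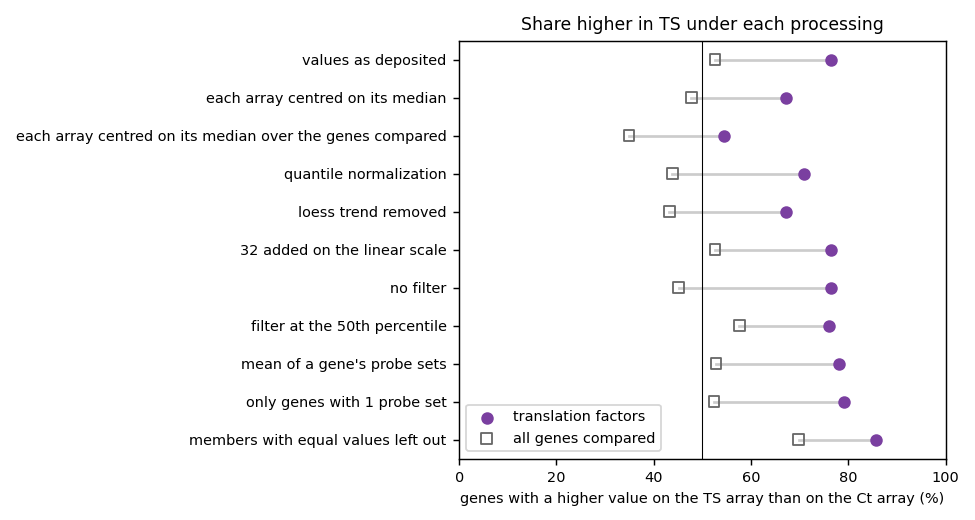
Share of genes (%) with a higher value on the TS array than on the Ct array under each processing, for translation factors (filled circles) and all genes compared (open squares). The members' share runs from 54.5% with centring over the genes compared to 85.7% without equal values, and lies to the right of the share of all genes in every row.

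**Figure D3:**
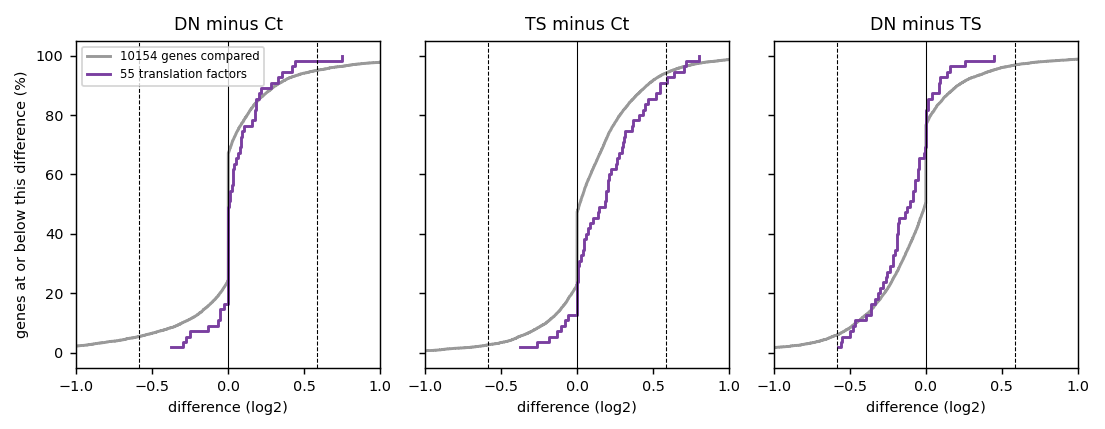
Cumulative percentage of genes (vertical axis) against the difference in log2 (horizontal axis, shown from -1 to 1) for the 55 translation factors and the 10154 genes compared, in each comparison, with dashed lines at 1.5-fold. The curve of the members is shifted to the right of that of all genes over the small positive differences of TS minus Ct, whose median was 0.18 for members and 0.02 for all genes, and has shorter tails than it in DN minus Ct.

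Elongation genes held the largest difference in each comparison with Ct, Eef2k in DN and Eef1b2 in TS. Eef2k, the kinase that inactivates eEF2, read 8.28 in Ct, 9.03 in DN and 8.99 in TS. Both treated pools were thus above Ct by a like amount, 0.75 (1.68-fold) in DN and 0.70 (1.63-fold) in TS, and they were 0.04 apart. Both differences are taken from the same Ct array. Eef2, the translocation factor that this kinase phosphorylates, read 12.48 in Ct, 12.67 in DN and 12.79 in TS, differences of 0.19 and 0.31.

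Eef1b2, the nucleotide exchange subunit that recharges eEF1A, read 9.93 in Ct, 10.38 in DN and 10.74 in TS. It was the member with the largest difference in TS, 0.80 or 1.74-fold, and with 0.44 in DN it lay between the other pools. Other subunits of eEF1B differed less. Eef1d read 9.64 in Ct and DN and 9.95 in TS, and Eef1g, the subunit that anchors the complex, read 11.80, 11.89 and 11.80 in Ct, DN and TS. Eef1e1, a scaffold protein of the multi-synthetase complex that shares the name, read 10.04 in Ct, 10.07 in DN and 10.63 in TS. Its difference in TS, 0.59, is just past the 1.5-fold limit (0.585 in log2) and fell short of it under every rescaling tried.

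The 2 genes of eEF1A had different patterns. Eef1a1, the form made in most tissues, read 13.33 in Ct, 13.52 in DN and 13.07 in TS, so DN was highest and TS lowest, with 0.45 between them. Its other probe set gave the same order, at 13.28, 13.48 and 13.12. This is the largest positive difference between DN and TS among the members, and its sign held under each scaling tried, where it ran from 0.35 to 0.57. Eef1a2, the form that replaces it in adult muscle and neurons, read 12.00 in Ct, 11.70 in DN and 11.92 in TS, with DN lowest at -0.30. In DN, Eef1a1 was therefore above Ct and Eef1a2 below, by 0.18 and -0.30, and in TS both were below, by -0.26 and -0.08. Eef1a1 has close copies in the genome, its levels are near the top of the array's range (13.99), where differences can be compressed, and the specificity of its probes was not tested.

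As deposited, the 3 methyltransferases that modify elongation factors were all above Ct in TS, where 52.6% of all genes were. In DN, 2 were above it and 1 equal, where 32.8% and 42.9% of genes were. After centring over the genes compared, 2 of 3 were above Ct in each pool, against 31.9% of genes in DN and 34.9% in TS. Eef1akmt1, a lysine methyltransferase of eEF1A, read 6.71 in Ct, 7.13 in DN and 7.12 in TS, above Ct by 0.42 and 0.40. Eef2kmt, a methyltransferase of eEF2, read 6.25 in Ct and DN and 6.51 in TS, and Eef1akmt2 differed from Ct by 0.22 in DN and 0.06 in TS.

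**Figure D4:**
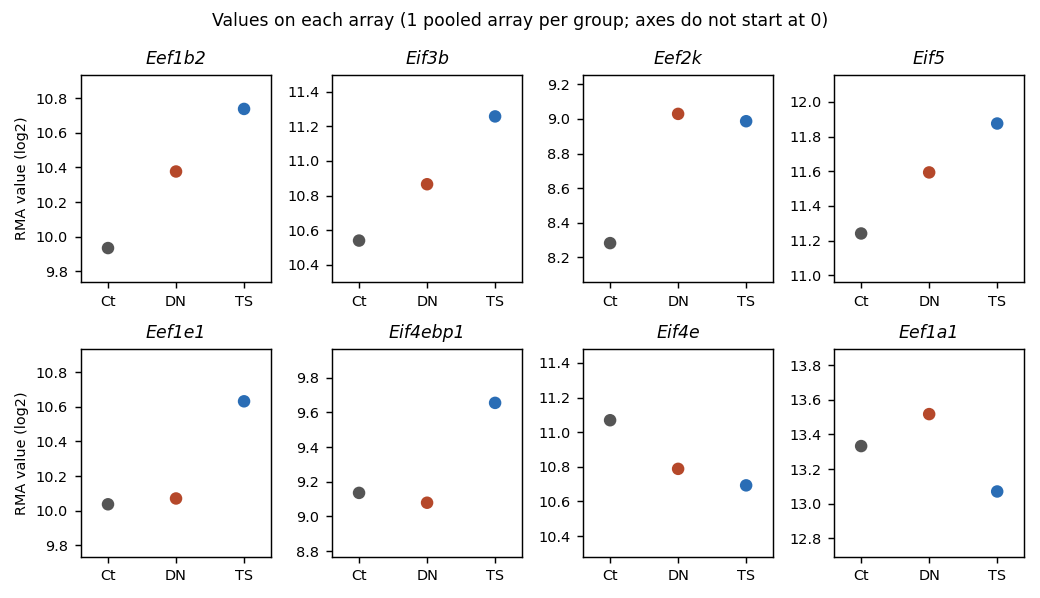
RMA values (log2, vertical axis, not starting at 0) of 8 genes on the Ct, DN and TS arrays, 1 point per pooled array, each panel spanning 1.2 units. Eef1b2, Eif3b and Eif5 are lowest in Ct and highest in TS, Eef2k is higher in both treated pools, Eef1e1 and Eif4ebp1 stand apart in TS, Eif4e is highest in Ct and Eef1a1 lowest in TS.

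Among the 11 factors that assemble the initiation complex and choose the start codon, Eif5, Eif1ad, Eif5b and Eif1a were the farthest above Ct in TS. Eif5, which triggers GTP hydrolysis by eIF2, read 11.24 in Ct, 11.59 in DN and 11.88 in TS, above Ct by 0.35 and by 0.63 (1.55-fold). Eif5b, the GTPase that joins the large subunit, was above Ct by 0.54 in TS and 0.08 in DN. Eif1ad, an eIF1A-like protein, read 7.48 in Ct, 7.52 in DN and 8.02 in TS, a difference of 0.55, and Eif1a was above Ct by 0.44. Eif1ad and Eif5b lie just inside the 1.5-fold limit. The 3 subunits of eIF2 stayed within 0.09 of Ct in both pools: Eif2s1, the alpha subunit, read 10.24 in Ct and 10.27 in DN and TS. Over the group of 11, the median was 0.10 in TS and 0.03 in DN. In TS, 9 were above Ct, where 52.6% of all genes were. Centring over the genes compared turned the TS median to -0.03, with 5 of 11 above Ct. The median of all genes was then -0.12, with 34.9% above Ct.

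Subunits of eIF2B, which recharges eIF2 with GTP, were mostly higher in TS and close to Ct in DN. Eif2b3 read 8.32 in Ct, 8.29 in DN and 8.77 in TS, and Eif2b1 9.24, 9.27 and 9.61 in Ct, DN and TS. The catalytic subunit Eif2b5 was above Ct by 0.29 in TS. Eif2b4 was the exception, below Ct by the same -0.13 in both pools. The median of the 5 was 0.29 in TS and -0.005 in DN, where Eif2b4 was the farthest from Ct. In TS, 4 of the 5 were above Ct under every scaling tried. Of all genes, 52.6% were above it as deposited and 34.9% with centring over the genes compared.

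The eIF2 alpha kinases, which shut eIF2B off under stress, differed from Ct by at most 0.19. Eif2ak3, the endoplasmic reticulum kinase PERK, read 8.14 in Ct, 8.15 in DN and 8.34 in TS. Eif2ak4, the amino acid sensor GCN2, read 7.01 in Ct and DN and 7.15 in TS, while Eif2ak1 and Eif2ak2 were within 0.05 of Ct in both pools. In DN, 2 of the 4 were above Ct and 2 equal, where 32.8% and 42.9% of all genes were. In TS all 4 were above it, where 52.6% of genes were. With centring over the genes compared, the TS median of 0.09 turned to -0.04, with 2 of the 4 above Ct. The median of all genes was then -0.12, with 34.9% above Ct.

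Subunits of eIF3, the scaffold of the small subunit complex, differed from one another. Eif3b, a core subunit, read 10.54 in Ct, 10.87 in DN and 11.26 in TS, above Ct by 0.33 and by 0.72 (1.64-fold). Eif3j, a loosely bound subunit, went the other way, at 10.57 in Ct, 10.19 in DN and 10.39 in TS, and its -0.37 was the lowest difference of any member in DN. Eif3a and Eif3c, which with Eif3b are part of the core, stayed within 0.04 of Ct. Eif3h and Eif3i read the same on all 3 arrays, although a dimmer probe set of Eif3h was above Ct by 0.17 in TS. The median of the 10 measured subunits was 0.06 in TS and 0.01 in DN. With centring over the genes compared it turned to -0.08 in TS, where that of all genes was -0.12.

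In the cap-binding machinery, eIF4E and its binding proteins lay on opposite sides of Ct in TS. Eif4e read 11.07 in Ct, 10.79 in DN and 10.69 in TS, below Ct by -0.28 and -0.38, and it was the lowest member in TS. Eif4a1, the main helicase, read 10.53 in Ct, 10.81 in DN and 11.00 in TS, above Ct by 0.28 and 0.47, whereas its relative Eif4a2 was within 0.01 of Ct. The relatives Eif4e2 and Eif4e3 were above Ct in TS by 0.28 and 0.18. Of the scaffolds, Eif4g3 was within 0.01 of Ct and Eif4g2, which lacks the eIF4E-binding site, stood at 0.16 in DN and -0.10 in TS. Eif4g1 is not among the members found by the rule and was not analysed here. Over the 9 members of this group the median was 0.00 in DN and 0.01 in TS. The TS median turned to -0.12 with centring over the genes compared, where that of all genes was also -0.12. With each array centred on its median it turned to -0.02, against -0.01 for all genes.

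The 3 eIF4E-binding proteins had the highest median of the initiation groups in TS. Eif4ebp1 read 9.14 in Ct, 9.08 in DN and 9.66 in TS, so TS stood apart from both other pools, by 0.52 from Ct and by 0.58 (1.49-fold) from DN. That gap was the largest between DN and TS of any member and just short of 1.5-fold. Eif4ebp2 was lowest in DN, at 8.28 in Ct, 8.03 in DN and 8.58 in TS. Eif4enif1, the protein that carries eIF4E into the nucleus, read 7.88 in Ct and DN and 8.24 in TS. All 3 were higher in TS than in either other pool under every scaling tried, with a median above Ct of 0.36 as deposited and 0.23 after centring over the genes compared. As deposited, 52.6% of all genes were higher in TS than in Ct, and 50.3% were lower in DN than in TS.

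Eif5a, the hypusine-bearing factor that helps ribosomes past difficult peptide bonds, read 11.47 in Ct, 11.46 in DN and 11.68 in TS. Eif6, which keeps free large subunits from joining, read 8.38 in Ct, 8.41 in DN and 8.59 in TS. Both were within 0.03 of Ct in DN and above it in TS, by 0.21 for Eif5a and 0.20 for Eif6, which centring over the genes compared brought to 0.08 and 0.07.

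Probe sets of 1 gene can disagree on the same arrays. This disagreement holds no variation between pools of rats, so it does not show whether a difference would recur in other pools. Over 401 genes with a second probe set past the brightness limit, its 95th percentile was 0.73 for TS minus Ct, 0.33 for DN minus Ct and 0.76 for DN minus TS. In TS, Eef1b2 was the 1 member of 55 past it, against 5.13% of all genes compared. In DN, 5 members were (Eef2k, Eef1b2, Eef1akmt1, Eif5 and Eif3j), or 9.09% against 18.7% of genes, and none was between DN and TS, against 5.36%. Each count is below the share of all genes.

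Other genes that work with these factors were taken from lists. Of 17 mTORC1 signalling genes, 2 were at least 1.5-fold higher and 1 lower in DN, where 4.93% of all genes were higher and 5.53% lower. In TS, 1 was higher and none lower, where 5.89% and 2.68% of genes were. Slc7a5, the leucine transporter that feeds mTORC1, read 6.38 in Ct, 7.29 in DN and 7.51 in TS, above Ct by 0.91 and 1.13. The sestrins, which restrain mTORC1 when leucine is short, went opposite ways in DN, with Sesn1 at -0.93 and Sesn3 at 0.76, and stood at 0.08 and -0.03 in TS. Tsc1, part of the complex that inhibits Rheb, stood at 0.55 in TS. The list medians were 0.00 in DN and 0.15 in TS. After centring over the genes compared the TS median went to 0.02, with 9 above Ct and 8 below. Of all genes, 34.9% were then above Ct and 65.1% below, with a median of -0.12.

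The integrated stress response is the programme set off when eIF2 is phosphorylated. Of 14 of its genes, none reached 1.5-fold in DN, where 4.93% of all genes were higher and 5.53% lower. In TS, 1 was higher and 1 lower by as much, where 5.89% and 2.68% of genes were. Atf3 read 11.76 in Ct, 11.49 in DN and 10.23 in TS, a difference of -1.53 in TS. Psat1, an enzyme of serine synthesis, was above Ct by 0.90 in TS and 0.41 in DN. Cebpb, a partner of ATF4, was above Ct by 0.55 in DN and 0.52 in TS. Atf4 itself was at -0.19 in DN and 0.17 in TS. The TS median of 0.12 turned to -0.01 with centring over the genes compared, where that of all genes was -0.12.

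Cytosolic aminoacyl-tRNA synthetases, which charge the tRNAs that eEF1A carries, were above Ct in TS for 17 of 19 genes, with a median of 0.22, and for 8 of 19 in DN, with a median of 0.00. Of all genes compared, 52.6% were above Ct in TS and 32.8% in DN. With centring over the genes compared, 13 of 19 were above Ct in TS, against 34.9% of genes, and the median went to 0.08. Wars1, the only one past 1.5-fold in either comparison with Ct, stood at 0.62 in TS and 0.49 in DN, Hars1 at 0.48 in TS, and Vars1 at -0.50 in DN. Of 8 genes that make hypusine on eIF5A or diphthamide on eEF2, 7 were above Ct in TS with a median of 0.27 (5 of 8 and 0.14 after that centring). Among them were Dph1 at 0.60, past 1.5-fold, and Dohh at 0.39, whereas in DN Dph1 and Dph3 stood at -0.28 and -0.27. Neither Wars1 nor Dph1 stayed past 1.5-fold in TS after centring over the genes compared.

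Markers of the tissue and of other cell types were read beside these results. Skeletal muscle markers read from 11.31 to 13.99 over the 3 arrays, and their median difference from Ct was -0.25 in DN and -0.18 in TS. Macrophage markers were above Ct in TS for 9 of 9 genes (52.6% of all genes), 4 of them by at least 1.5-fold (5.89% of all genes). With centring over the genes compared, 7 were above Ct (34.9% of genes), 2 of them by at least 1.5-fold (3.52%). As deposited, the summed linear value of the macrophage markers was 6157 in Ct, 6750 in DN and 8575 in TS. Adipocyte markers were at least 1.5-fold higher for 3 of 6 genes in both pools, against 4.93% of genes in DN and 5.89% in TS. Their sums were 3508, 4949 and 4066 in Ct, DN and TS. In each pool 5 of the 6 were above Ct, but Fabp4, the brightest, was below it, at -0.02 in DN and -0.43 in TS. Endothelial markers were below Ct for 5 of 6 in both pools, against 24.3% of genes in DN and 22.7% in TS, with sums of 5678, 4408 and 4762. Satellite cell markers summed to 1454, 2194 and 1469, but this order is that of Myf5 (8.15, 10.15 and 8.97 in log2), while the list median was 0.00 in both pools and Chodl and Megf10 stood at -0.325 and -0.20 in DN. Fibroblast markers summed to 24854, 24605 and 25097, Schwann cell markers to 2780, 2839 and 3344, and the 2 erythroid markers to 2101, 1636 and 3074. A sum of intensities is above 0 even for dim probe sets, so it does not show that a cell type was present. In Ct, the Schwann cell markers read 11.20 (Pmp22), 7.94 (S100b), 6.59 (Mbp) and 6.48 (Sox10). The part of these cells in the differences of translation factors was not tested.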

How the data were processed

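The deposited values are log2 RMA values of Affymetrix Rat Gene arrays, which the authors made in Affymetrix Expression Console as a core-exon analysis, per the submitters' processing notes and per the labels. No label names the logarithm's base, which was taken as 2 from the range of the values. For tool versions, annotation and build the entry is: not given in the sources used here. Of 29170 probe sets, 15310 had 1 gene symbol in the platform annotation, 323 several and 13537 none. A gene was represented by its brightest probe set, and genes below the 30th percentile of mean value were left out. Differences of log2 values were described by limits of 1.5-fold, 2-fold and a smaller one of 0.32 in log2, and the procedure was checked on simulated data. With 1 array per group there was no test, and the number of arrays limits the precision.

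Members, factor groups and lists were chosen with earlier results of these data known. Any member could be named. Values on all arrays were given for members past 1.5-fold in any comparison, for the leading 2 of each factor group and for 10 named in every case, of which Eif4g1 was not analysed here; further members were named after their values were seen. From the pathway lists, genes past 1.5-fold and the 2 with the largest difference were named, and Atf4 was added. Alternatives were 4 scalings, 32 added on the linear scale, other filters, other probe set rules, other limits, means and leaving out equal values. Centring over the genes compared, and the counts of members higher by any amount, were added after seeing the data. RefSeq start regions (GRCr8) were matched for 49 of 55 members, 48 by gene identifier and 1 by symbol. Scripts ran under Python 3.11.15 with numpy 2.4.6, statsmodels 0.14.6, pandas 2.3.3 and matplotlib 3.10.9.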

Additional observations from a re-analysis of the deposited data

How the results depend on the processing

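The differences of the 23 members chosen by the rule were recomputed in 414 values. The settings were centring (both kinds), quantile normalization, removal of a trend, 32 added on the linear scale and means of probe sets. None moved by over 0.2 (log2). Both centrings shift every gene by the same amount, smaller than that limit, and means of probe sets could change only Eef1a1 among these members. Those settings could therefore not move a difference by that much, apart from Eef1a1 under means of probe sets. Near 0, Eef2 (DN minus TS), Eif2s1 (TS minus Ct) and Eif2ak3 (DN minus Ct) changed sign. At the smaller limit of 0.32 (log2), 5 members were above Ct in DN and 1 below, 14 were above it in TS and 1 below, and between DN and TS 1 was higher in DN and 10 were lower. At 2-fold the counts of 1 higher in DN and 5 higher in TS went to 0. Centring over the genes compared, added after seeing the data, left 1 member past 1.5-fold above Ct in TS. As deposited, 10 members were higher in DN than in TS by any amount (18.2%, against 23.3% of all genes), 7 equal and 38 lower. With each array centred on its median, 19 were higher (34.5%, against 52.2% of genes). Centring over the genes compared gave 29 higher (52.7%, against 65.9% of genes) and 26 lower. Quantile normalization gave 18 higher (32.7%, against 57% of genes), and removal of a trend 21 (38.2%, against 58.2%). The members' share was below that of all genes in each of these settings. Median differences of the members moved by no more than 0.2 in any setting, a limit larger than the medians themselves. With centring over the genes compared, that of TS minus Ct went from 0.18 to 0.05 and that of DN minus TS from -0.10 to 0.02. The medians of all genes were then -0.12 and 0.12. No paired analysis was possible because each group has 1 array.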

Other observations

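Mitochondrial translation uses its own factors, and these lay below Ct in DN. Of 6 measured, 5 read lower in DN and 1 the same, where 24.3% of all genes compared were lower and 42.9% equal, and the median difference was -0.16 against 0.00. Tufm, the mitochondrial elongation factor Tu, read 9.80 in Ct, 9.18 in DN and 9.47 in TS. Its -0.61 in DN was the one difference past 1.5-fold, where 5.53% of all genes were that far below Ct. Mtif2, the mitochondrial initiation factor, stood at -0.48 in DN and -0.24 in TS, and Mrrf, which recycles mitochondrial ribosomes, at 0.31 in TS. The direction in DN held for these 5 genes under each scaling tried.

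Termination and recycling factors of the cytosol were equal in Ct and DN for 5 of 6 genes past the brightness limit, where 42.9% of all genes were. In TS, 4 of 6 were above Ct, close to the 52.6% of all genes. The median of 0.17 went to 0.04 with centring over the genes compared, where that of all genes was -0.12. The highest were Abce1, which splits terminated ribosomes, at 0.36 and Pelo, which rescues stalled ones, at 0.34. Of the genes around the poly(A)-binding protein, Paip1 stood at -0.45 in TS and Paip2 at 0.19 in DN.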
